A study of Mus musculus with 3 samples.

Results

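Atypical protein kinase C (aPKC) and the Par proteins form the kinase and scaffold complex that marks the apical side of animal cells. The 7 genes described here were taken by gene name from the 55487 genes of the deposited table: Prkci and Prkcz, the aPKC kinases; Pard3, the scaffold; Pard6a, Pard6b and Pard6g, the adaptors; and Pawr, also called Par-4, an aPKC-binding inhibitor. All 7 had at least 10 estimated counts in at least 1 library, as did 17655 genes in all.

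RNA was sequenced from embryoid bodies (EBs), cell aggregates grown in suspension from wild-type E14K mouse ES cells after LIF, the cytokine that holds ES cells undifferentiated, was left out. The 3 libraries were C2 ceramide day 4 (30 μM C2 ceramide, a cell-permeable ceramide with a short acyl chain, given from the beginning of day 3), DMSO day 4, and DMSO day 3, where DMSO is the solvent. The labels call both DMSO groups control, and the solvent is named in the column headers of the deposited tables and in the study's account of its RNA sequencing. Each condition had 1 library, of a single ES cell line, so no spread between cultures could be measured and no test was made. Total estimated counts were between 33619197 and 35290094.

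In epithelial cells PARD6 binds aPKC and the GTPase CDC42, PARD3 holds the pair at cell junctions, and the active kinase phosphorylates LLGL and PAR-1 (MARK) proteins so that they leave the apical side. PRKCI is the aPKC needed in early mouse embryos, whereas PRKCZ has an additional brain form that starts inside the gene and lacks the regulatory part. PAWR binds the zinc finger region of aPKC and lowers its activity, and it was first described in cells undergoing apoptosis. Despite its other name, PAWR is not the polarity kinase Par-4, which is the product of Stk11. Ceramide is known to bind aPKC directly, an event that RNA levels do not measure.

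Each level is given in TPM, a measure of abundance that corrects for transcript length and sums to the same total in every library, with its 95% counting interval in the plot of member levels. Each ratio is a TPM ratio, and the brackets after a log2 ratio hold its 95% counting interval, which covers neither differences between cultures nor errors in assigning reads. A gene was called higher above a ratio of 2 and lower under 0.5. The 3 comparisons share libraries and are therefore not independent of each other. In bulk EBs, fewer cells of a type and less RNA per cell cannot be told apart.

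Pawr had the highest level of the 7 genes in C2 ceramide-treated EBs and the largest ratio to DMSO day 4. The 3 adaptor genes differed in direction: Pard6g was lower with C2 ceramide on day 4, while Pard6b and Pard6a were higher. Prkcz and Pard3 had intervals that included no difference, and Prkci was slightly higher. Against DMSO day 4, 0 of 7 genes were called at 2-fold, where 9.97% of all genes in use were higher and 12.3% were lower. At 1.5-fold 2 of 7 were called, Pawr higher and Pard6g lower, beside 16.4% of all genes higher and 19.5% lower. Their median log2 ratio was 0.25, and that of all genes in use was -0.03.

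**Figure D1:**
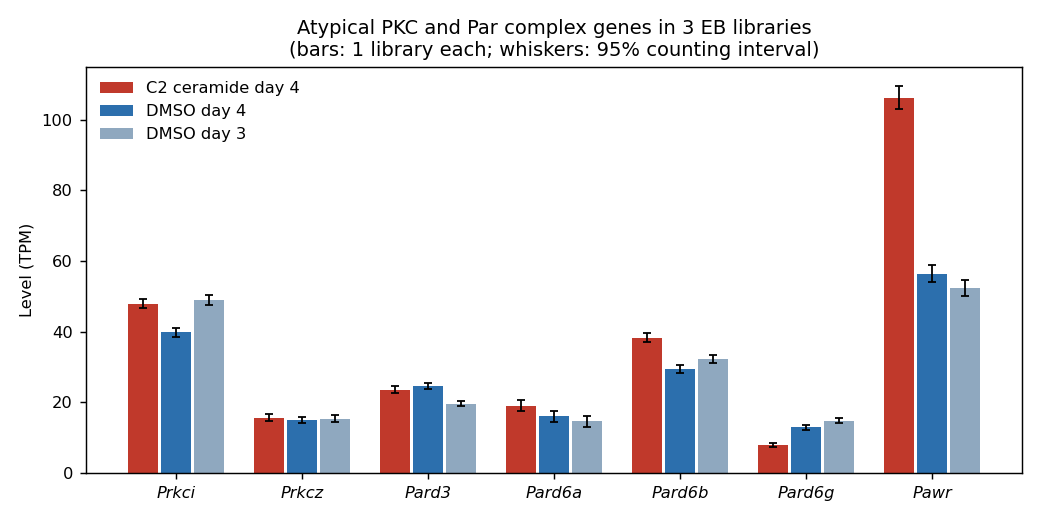
Levels of the 7 genes in TPM on a linear axis from 0, with 1 bar per library (C2 ceramide day 4, DMSO day 4, DMSO day 3) and whiskers for the 95% counting interval. The Pawr bar of C2 ceramide day 4 stands at 106.3 TPM against 56.4 and 52.3 TPM in the DMSO libraries, and Pard6g is the only gene whose C2 ceramide bar lies clearly below both DMSO bars.

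The kinases were described first. Prkci (chromosome 3, 30995747 to 31052959, plus strand, GRCm38) had 47.8 TPM in C2 ceramide day 4, 39.8 TPM in DMSO day 4 and 49.0 TPM in DMSO day 3, from 5473, 4528 and 5246 estimated counts in the same order. It was therefore lowest on DMSO day 4, and the levels of C2 ceramide day 4 and DMSO day 3 had overlapping intervals. The log2 ratio was 0.27 [0.21, 0.32] for C2 ceramide against DMSO day 4 and -0.30 [-0.36, -0.24] for DMSO day 4 against DMSO day 3. For C2 ceramide day 4 against DMSO day 3 it was -0.03 [-0.09, 0.02].

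Prkcz (chromosome 4, 155260129 to 155361361, minus strand) had 15.7 TPM in C2 ceramide day 4, 15.0 TPM in DMSO day 4 and 15.3 TPM in DMSO day 3. The levels were within counting error of each other, with log2 ratios of 0.06 [-0.07, 0.18], -0.03 [-0.15, 0.10] and 0.03 [-0.09, 0.16] for C2 ceramide against DMSO day 4, DMSO day 4 against DMSO day 3, and C2 ceramide day 4 against DMSO day 3. Prkcz was the smaller of the pair in every library, with 24.7% [23.5, 25.9] of the summed aPKC TPM in C2 ceramide day 4, 27.4% [26.1, 28.8] in DMSO day 4 and 23.8% [22.6, 25.1] in DMSO day 3. The pseudogene Prkcz2 on chromosome 7, which resembles the Prkcz transcript, had 53.4, 56 and 44.2 estimated counts in the same order, so reads may be split between them.

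Pard3 (chromosome 8, 127063893 to 127612286, plus strand), the scaffold with PDZ domains that brings PARD6 and aPKC to junctions, had 23.6 TPM in C2 ceramide day 4, 24.5 TPM in DMSO day 4 and 19.6 TPM in DMSO day 3. Both day 4 libraries were above day 3 and had overlapping intervals. The log2 ratio was -0.05 [-0.13, 0.02] for C2 ceramide against DMSO day 4, 0.32 [0.24, 0.40] for DMSO day 4 against DMSO day 3, and 0.27 [0.19, 0.35] for C2 ceramide day 4 against DMSO day 3.

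The PARD6 adaptors link aPKC to CDC42, and mice have 3 genes for them. Pard6a (chromosome 8, 105701148 to 105703496, plus strand) had 19.0 TPM in C2 ceramide day 4, 16.0 TPM in DMSO day 4 and 14.6 TPM in DMSO day 3, with 528, 413 and 351 estimated counts, the fewest of the 7 genes in every library. Its log2 ratio was 0.25 [0.06, 0.44] for C2 ceramide against DMSO day 4 and 0.13 [-0.08, 0.34] for DMSO day 4 against DMSO day 3. Pard6b (chromosome 2, 168081004 to 168101203, plus strand) had 38.3 TPM in C2 ceramide day 4, 29.4 TPM in DMSO day 4 and 32.2 TPM in DMSO day 3. It was highest with C2 ceramide and lowest on DMSO day 4, and the 3 intervals did not overlap. The log2 ratio was 0.39 [0.31, 0.46] for C2 ceramide against DMSO day 4, -0.13 [-0.21, -0.06] for DMSO day 4 against DMSO day 3 and 0.25 [0.18, 0.32] for C2 ceramide day 4 against DMSO day 3.

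Pard6g (chromosome 18, 80046890 to 80119639, plus strand) had 7.78 TPM in C2 ceramide day 4, 12.9 TPM in DMSO day 4 and 14.8 TPM in DMSO day 3, from 673, 1110 and 1245 estimated counts. It was the only one of the 7 genes with an interval wholly below no difference in C2 ceramide against DMSO day 4, at a log2 ratio of -0.73 [-0.87, -0.59] and a ratio of 0.602. Among all genes in use, 16.2% had a smaller ratio. Over DMSO day 3 the log2 ratio of C2 ceramide day 4 was -0.93 [-1.07, -0.79], and that of DMSO day 4 was -0.20 [-0.32, -0.08].

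The makeup of the adaptor RNA therefore differed between the libraries. Pard6g made up 11.9% of the summed Pard6 TPM in C2 ceramide day 4, 22.2% in DMSO day 4 and 24.1% in DMSO day 3. Pard6b held 58.8% in C2 ceramide day 4, 50.4% in DMSO day 4 and 52.3% in DMSO day 3. Pard6a held 29.2% in C2 ceramide day 4, 27.5% in DMSO day 4 and 23.7% in DMSO day 3. The level of Pard6g over that of Pard6b, a ratio within a library that needs no scaling between libraries, was 0.203 [0.187, 0.220] in C2 ceramide day 4, 0.440 [0.410, 0.472] in DMSO day 4 and 0.461 [0.431, 0.492] in DMSO day 3. The interval of C2 ceramide day 4 lay below those of both DMSO libraries, which overlapped each other.

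Pawr (chromosome 10, 108332121 to 108414240, plus strand) had 106.3 TPM in C2 ceramide day 4, 56.4 TPM in DMSO day 4 and 52.3 TPM in DMSO day 3, from 4087, 2157 and 1965 estimated counts. The ratio of C2 ceramide against DMSO day 4 was 1.88, a log2 ratio of 0.91 [0.84, 0.99], and 11.0% of all genes in use had a larger one. DMSO day 4 against DMSO day 3 gave 0.11 [0.02, 0.20]. C2 ceramide day 4 against DMSO day 3 gave a ratio of 2.03 and a log2 ratio of 1.02 [0.95, 1.10]. That made Pawr the 1 of 7 genes called in this comparison, where 11.2% of all genes in use were higher and 9.39% were lower. The value sits at the threshold: with CPM (counts divided by the library total), TMM scaling or DESeq2 size factors, 0 of 7 genes were called.

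Between the DMSO libraries, 0 of 7 genes were called, where 12.8% of all genes in use were higher on day 4 and 9.45% were lower. The members' log2 ratios of DMSO day 4 against DMSO day 3 ran between -0.30 and 0.32 with a median of -0.03, and the median of all genes in use was 0.05.

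**Figure D2:**
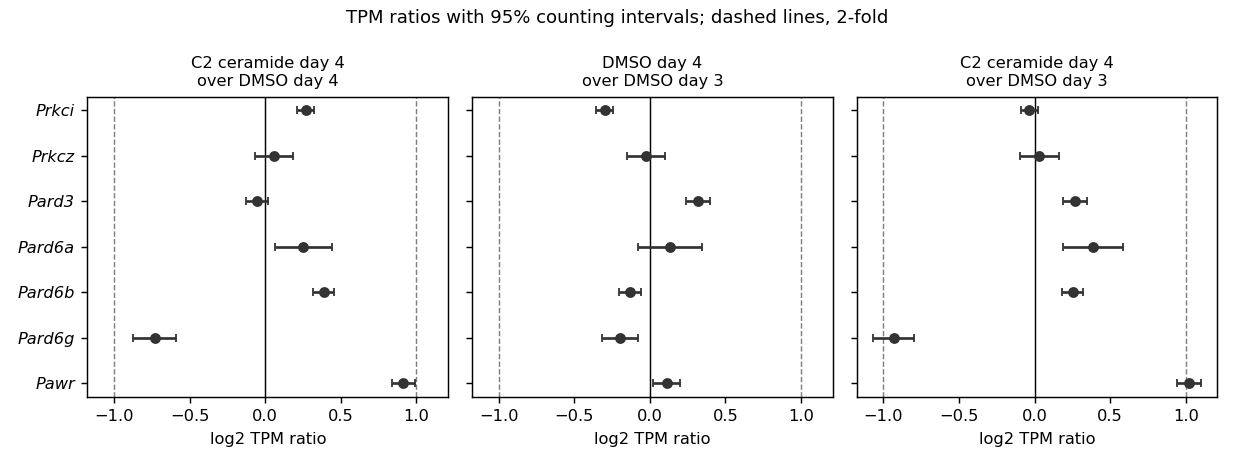
Log2 TPM ratios of the 7 genes in the 3 comparisons (points) with 95% counting intervals (bars), where dashed lines mark 2-fold. Pawr at 0.91 and Pard6g at -0.73 lie farthest from 0 in C2 ceramide day 4 against DMSO day 4, and all 7 genes lie between -0.30 and 0.32 in DMSO day 4 against DMSO day 3.

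The order of levels was Pawr, Prkci, Pard6b, Pard3, Pard6a, Prkcz and Pard6g in C2 ceramide day 4, and no neighbouring intervals overlapped. DMSO day 4 had the same order, with Pard6a and Prkcz overlapping. In DMSO day 3 the order ended with Prkcz, Pard6g and Pard6a, whose neighbouring intervals overlapped, and the intervals of Pawr and Prkci overlapped too. By gene TPM, Pard6g was thus below Prkcz and Pard6a, with intervals apart from both, in C2 ceramide day 4 and in DMSO day 4. It overlapped both in DMSO day 3. The order of Pard6a and Pard6g in the DMSO libraries depended on transcripts not annotated as coding. From coding transcripts only, Pard6a had 21.7% of the summed Pard6 TPM in DMSO day 4 and Pard6g 23.9%. In DMSO day 3 these shares were 17.7% and 26.0%.

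The genes closest to each member were sought among 10470 protein-coding genes with at least 100 estimated counts in every library, by the distance between points whose coordinates were the log2 ratios of DMSO day 4 against DMSO day 3 and of C2 ceramide against DMSO day 4. Etfb (distance 0.027) and Ctbs (0.029) were nearest to Pawr, and 10 genes lay within 0.1 of it. Amer1 (0.030) and Zic2 (0.035) were nearest to Pard6g, with 17 genes within 0.1. The other members lay in denser regions, with between 187 and 653 genes within 0.1, and their nearest genes were Baz1b and Rbis for Prkci, Rps16 and Arl8a for Prkcz, Dynlt1c and Gpr180 for Pard3, Sh3d21 and Skap2 for Pard6a, and Thnsl2 and Ank3 for Pard6b. Closeness over 3 libraries is a description only.

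The transcript table listed 55 transcripts of the 7 genes, and 29 of them had at least 10 estimated counts in a library. Pard6b, Pard6g and Pawr each had 1 transcript with counts, so their gene values are those of a single form. Transcript ENSMUST00000108249.8 led Prkci with 91.1% of its TPM in C2 ceramide day 4, 91.3% in DMSO day 4 and 87.3% in DMSO day 3. The leading transcript was the same in all 3 libraries for 7 of 7 genes, though Pard6b, Pard6g and Pawr had no other transcript to lead. How often this held over all genes was not computed. The groups of transcripts below were chosen after their values were seen, and how surely short reads tell such transcripts apart is not known from the table.

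For Prkcz the full-length transcript ENSMUST00000030922.14 (592 codons) carried 13.0 TPM in C2 ceramide day 4, 12.1 TPM in DMSO day 4 and 11.4 TPM in DMSO day 3. Transcript ENSMUST00000103178.10 starts inside the gene at position 155345772, has 409 codons and corresponds in structure to the brain form. It had 0.316 TPM in C2 ceramide day 4, 0.728 TPM in DMSO day 4 and 0.745 TPM in DMSO day 3, from 38.7, 88.3 and 88.2 estimated counts. The log2 ratio of C2 ceramide against DMSO day 4 was -1.20 [-1.79, -0.65] for the internal form and 0.10 [-0.03, 0.23] for the full-length form. The internal form also ends in a longer last exon (2403 bases, against 811 bases in the full-length transcript), so its reads may come from the longer 3′ end as well as from the internal start. With 4 shorter transcripts that start farther downstream inside the gene, the class had 0.316 TPM in C2 ceramide day 4, 1.58 TPM in DMSO day 4 and 1.71 TPM in DMSO day 3, a sum that leans on short transcripts with few counts. The short transcript ENSMUST00000140256.1, with no coding sequence annotated, had 1.51 TPM in C2 ceramide day 4, 0.873 TPM in DMSO day 4 and 1.77 TPM in DMSO day 3.

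The start regions of the Prkcz full-length and internal forms are shown because these transcripts differ in where they begin. Both windows are RefSeq promoter windows of 300 bases on the minus strand of GRCm38.p6, written 5′ to 3′, the first at chr4:155361379-155361678 before the full-length form and the second at chr4:155345740-155346039, which holds the internal start. Capitals mark GC boxes (GGGCGG or, on the other strand, CCGCCC).
Prkcz upstream start: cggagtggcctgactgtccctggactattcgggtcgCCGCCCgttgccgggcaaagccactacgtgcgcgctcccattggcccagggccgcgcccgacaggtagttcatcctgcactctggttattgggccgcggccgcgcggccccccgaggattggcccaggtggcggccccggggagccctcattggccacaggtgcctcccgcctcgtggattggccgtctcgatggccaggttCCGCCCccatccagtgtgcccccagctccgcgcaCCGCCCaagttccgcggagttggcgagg
Prkcz internal start: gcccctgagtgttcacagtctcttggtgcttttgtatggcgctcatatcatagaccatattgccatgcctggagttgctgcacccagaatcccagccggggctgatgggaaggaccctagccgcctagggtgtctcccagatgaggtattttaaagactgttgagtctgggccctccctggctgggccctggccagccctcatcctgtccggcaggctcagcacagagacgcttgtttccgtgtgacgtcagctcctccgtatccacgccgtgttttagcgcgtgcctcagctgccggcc
The upstream window held 3 GC boxes, 5 CCAAT boxes (CCAAT or ATTGG), 31 CpG dinucleotides and 71.0% G and C. The internal window held 0 GC boxes, 0 CCAAT boxes, 13 CpG dinucleotides and 59.3% G and C. Of all 32851 windows of this length, 35.7% held a GC box and 37.4% a CCAAT box, and the median was 7 CpG dinucleotides and 52.7% G and C. A further RefSeq window inside the gene, at chr4:155344700-155344999, held 2 GC boxes, 0 CCAAT boxes, 14 CpG dinucleotides and 58.3% G and C, and is not printed because the only annotated transcript starting in it, ENSMUST00000145373.1, had 0 counts in all 3 libraries. A match is a description of letters and does not mark a site in use.

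For Pard6a, 2 main transcripts differ by 1 codon at a splice junction, and slightly at both ends. They are shown around that junction, at chr8:105702608-105702610 on the plus strand of GRCm38, with the 3 optional bases in capitals.
Pard6a ENSMUST00000098444.8: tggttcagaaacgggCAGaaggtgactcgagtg
Pard6a ENSMUST00000212352.1: tggttcagaaacgggaaggtgactcgagtg
The form with the 3 bases (ENSMUST00000098444.8, 330 codons) had 6.85 TPM in C2 ceramide day 4, 3.22 TPM in DMSO day 4 and 2.42 TPM in DMSO day 3, from 219.5, 102.1 and 74.6 estimated counts. The form without them (ENSMUST00000212352.1, 329 codons) led the gene in every library, with 7.49 TPM in C2 ceramide day 4, 6.43 TPM in DMSO day 4 and 5.90 TPM in DMSO day 3. The log2 ratio of C2 ceramide against DMSO day 4 was 1.09 [0.74, 1.44] for the form with the bases and 0.22 [-0.06, 0.50] for the form without them. Summed over all Pard6a transcripts of each kind, the difference was smaller: transcripts with the 3 bases had 10.6 TPM in C2 ceramide day 4, 7.79 TPM in DMSO day 4 and 8.20 TPM in DMSO day 3, and those without had 8.42 TPM in C2 ceramide day 4, 8.21 TPM in DMSO day 4 and 5.90 TPM in DMSO day 3. In C2 ceramide against DMSO day 4 the log2 ratios of these sums were 0.45 [0.16, 0.74] with the bases and 0.04 [-0.22, 0.29] without them. The sum with the bases includes the short transcript ENSMUST00000212634.1, with no coding sequence annotated, which had between 3.64 and 4.29 TPM. It had 44.7 estimated counts in C2 ceramide day 4 and 51.7 in DMSO day 4. The smaller difference is therefore not one between coding forms alone. Of the forms that start farther in, ENSMUST00000212430.1 had 29.3 estimated counts in C2 ceramide day 4, 55.4 in DMSO day 4 and 0 in DMSO day 3, and ENSMUST00000093195.6 had 0, 0 and 54.2 in that order. They differ by 1 codon, and no ratio is given against 0.

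Pard3 had 29 annotated transcripts, 15 of them with at least 10 estimated counts in a library. The leading transcript ENSMUST00000160272.7 (1334 codons) and ENSMUST00000162309.7 (1333 codons) differ by 1 codon and at both ends, with last exons of 1855 and 1539 bases. The 3 coding bases by which they differ, at chr8:127409705-127409707, are shown in capitals between 15 bases on either side.
Pard3 ENSMUST00000160272.7: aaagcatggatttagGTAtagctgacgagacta
Pard3 ENSMUST00000162309.7: aaagcatggatttagtagctgacgagacta
The leading form had 6.32 TPM in C2 ceramide day 4, 5.64 TPM in DMSO day 4 and 5.88 TPM in DMSO day 3. ENSMUST00000162309.7 had 2.37 TPM in C2 ceramide day 4, 3.96 TPM in DMSO day 4 and 2.45 TPM in DMSO day 3. In C2 ceramide against DMSO day 4 the log2 ratio was 0.16 [0.04, 0.29] for the leading form and -0.74 [-0.92, -0.57] for ENSMUST00000162309.7. Whether their reads differ at the 3 bases or at the ends is not known from the table.

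Pard3 transcripts were also grouped by where they end. Those that end at the far 3′ end of the gene had 9.84 TPM in C2 ceramide day 4, 12.5 TPM in DMSO day 4 and 9.68 TPM in DMSO day 3. Those with a middle 3′ end had 4.99 TPM in C2 ceramide day 4, 4.31 TPM in DMSO day 4 and 0.844 TPM in DMSO day 3, from 420.1, 303.9 and 53.1 estimated counts. The middle class was therefore low on day 3 and higher in both day 4 libraries, with a log2 ratio of 2.35 [1.93, 2.80] for DMSO day 4 against DMSO day 3 and 0.21 [-0.01, 0.43] for C2 ceramide against DMSO day 4. Its transcripts did not move together. ENSMUST00000162602.7 led the class in DMSO day 4, with 1.85 TPM in C2 ceramide day 4, 2.95 TPM in DMSO day 4 and 0.378 TPM in DMSO day 3, and its log2 ratio of C2 ceramide against DMSO day 4 was -0.67 [-0.96, -0.39]. ENSMUST00000079777.11 (896 codons) had 187.8 estimated counts (1.86 TPM) in C2 ceramide day 4 and 0 in both DMSO libraries, so the higher class sum in C2 ceramide day 4 rests on transcripts listed at 0 in DMSO day 4. Those with the near 3′ end had 5.83 TPM in C2 ceramide day 4, 6.21 TPM in DMSO day 4 and 5.79 TPM in DMSO day 3, though their main members ran in opposite directions: ENSMUST00000162907.7 (741 codons) had 4.95 TPM in C2 ceramide day 4, 2.77 TPM in DMSO day 4 and 3.31 TPM in DMSO day 3, and ENSMUST00000108752.9 (606 codons) had 0.884 TPM in C2 ceramide day 4, 3.43 TPM in DMSO day 4 and 2.42 TPM in DMSO day 3. The short ENSMUST00000162727.1 had between 4.46 and 21.3 estimated counts.

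**Figure D3:**
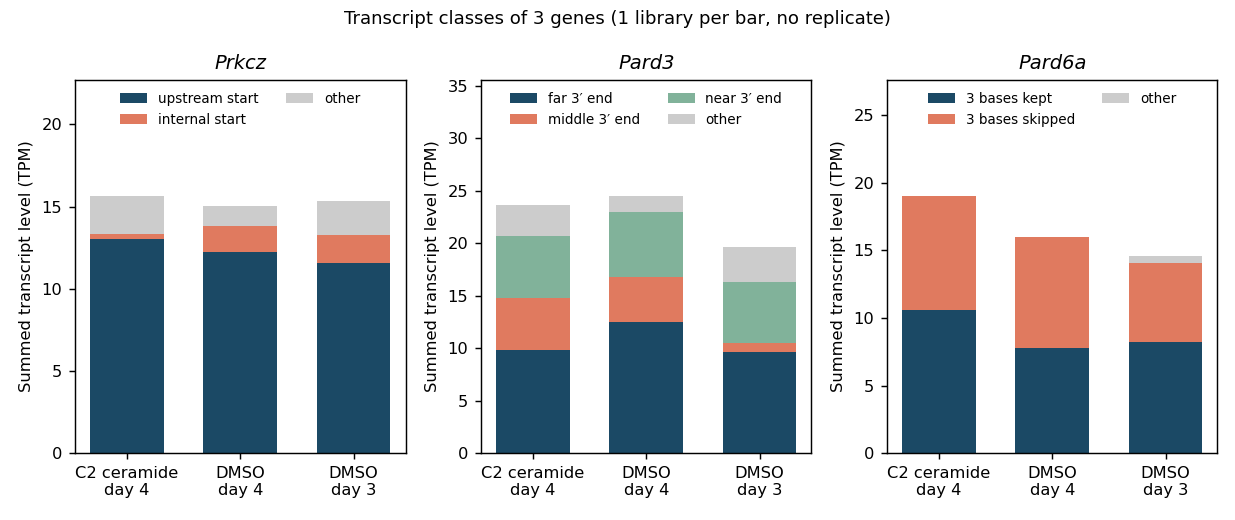
Summed TPM of transcript classes in Prkcz (by start), Pard3 (by 3′ end) and Pard6a (by the 3 optional bases), stacked on a linear axis, with 1 bar per library. The Prkcz internal-start layer is thinnest in C2 ceramide day 4 (0.316 TPM), and the Pard3 middle layer is thinnest in DMSO day 3 (0.844 TPM).

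The wider polarity and PKC genes were followed in 7 further lists of 75 genes, 74 of them in use. In C2 ceramide against DMSO day 4, 5 of the 74 (6.76%) were higher and 6 (8.11%) were lower, shares below the 9.97% and 12.3% of all genes in use, and their median log2 ratio was -0.08. In DMSO day 4 against DMSO day 3, 8 (10.8%) were higher and 3 (4.05%) were lower, beside 12.8% and 9.45% of all genes in use. In C2 ceramide day 4 against DMSO day 3, 3 (4.05%) were higher and 3 (4.05%) were lower, beside 11.2% and 9.39%.

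Among 14 regulators and partners of the complex, 0 were higher and 2 were lower with C2 ceramide against DMSO day 4. Of all genes in use, 9.97% were higher and 12.3% were lower. Tiam2, an activator of the GTPase RAC1, had 0.614 TPM in C2 ceramide day 4, 5.16 TPM in DMSO day 4 and 0.707 TPM in DMSO day 3, a log2 ratio of -3.07 [-3.48, -2.69] for C2 ceramide against DMSO day 4. The Pard3 paralog Pard3b was the other, with 43 estimated counts at most and a call that rests on TPM, since its CPM ratio was 0.647. Cdc42, whose product activates PARD6-bound aPKC, had 368.9 TPM in C2 ceramide day 4, 405.3 TPM in DMSO day 4 and 388.2 TPM in DMSO day 3, and is named here outside the rule for named genes, after its values were seen.

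The Crumbs complex is the membrane partner of the Par complex. With C2 ceramide 3 of its 8 genes in use were lower and 0 higher, beside 12.3% and 9.97% of all genes. With TMM scaling 2 were lower and 0 higher. Crb3 went the other way without being called, with 71.0 TPM in C2 ceramide day 4, 48.3 TPM in DMSO day 4 and 59.8 TPM in DMSO day 3. Its log2 ratio of C2 ceramide against DMSO day 4 was 0.55 [0.45, 0.66]. Crb2, a Crumbs transmembrane protein needed for cells to leave the mouse primitive streak, had 1.40 TPM in C2 ceramide day 4, 3.52 TPM in DMSO day 4 and 1.80 TPM in DMSO day 3. Mpp5, the scaffold PALS1, had 14.2 TPM in C2 ceramide day 4, 33.3 TPM in DMSO day 4 and 15.7 TPM in DMSO day 3, but its CPM ratio of C2 ceramide against DMSO day 4 was 0.709, so its call rests on TPM. Lin7a had 0 estimated counts in C2 ceramide day 4 and 21 in DMSO day 4, at least 7.04-fold lower when 3 counts in that library are taken as the floor.

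No gene was called in C2 ceramide against DMSO day 4 among the 8 of the basolateral Scribble module. The same held for the 16 of the Par-1, Par-4, Par-5 and 14-3-3 list and the 11 of the apical cortex and actomyosin. Par-4 in that list name is the kinase gene Stk11 and not Pawr, and Par-5 is the 14-3-3 family. Of all genes in use, 9.97% were higher and 12.3% were lower. The median log2 ratios of the lists were -0.30, 0.03 and -0.24 in the order given. These lists hold known aPKC substrates, the LLGL and MARK genes among them. Below 2-fold some still differed: the log2 ratio was -0.63 [-0.68, -0.59] for Llgl1 and 0.67 [0.61, 0.72] for Llgl2. At 1.5-fold, 2 Scribble module genes were higher and 2 lower, beside 16.4% and 19.5% of all genes in use. The Par-1, Par-4, Par-5 and 14-3-3 list had 0 higher and 1 lower at that threshold.

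Of the 7 diacylglycerol-responsive PKC genes, the conventional relatives of aPKC and their calcium-independent kin, 2 were higher and 1 was lower. The shares of all genes in use were 9.97% and 12.3% in C2 ceramide against DMSO day 4. Prkcb had 2.84 TPM in C2 ceramide day 4, 1.17 TPM in DMSO day 4 and 2.90 TPM in DMSO day 3. Its level was therefore lowest on DMSO day 4, and its log2 ratio of C2 ceramide against DMSO day 4 was 1.29 [0.94, 1.64]. Prkcq had 0 estimated counts in C2 ceramide day 4 and 28 in DMSO day 4, at least 9.39-fold lower against the same floor.

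Of 10 genes listed as linked to PAWR, 3 were called higher in C2 ceramide day 4 and 0 lower. The list does not separate genes that act with PAWR from genes that act against it. Against DMSO day 4, 9.97% of all genes in use were higher and 12.3% were lower. Wt1, a zinc finger transcription factor that PAWR binds, had 1.87 TPM in C2 ceramide day 4, 0.111 TPM in DMSO day 4 and 0.709 TPM in DMSO day 3, from 103, 7 and 53 estimated counts. Bcl2, an inhibitor of apoptosis, had 3.01 TPM in C2 ceramide day 4, 1.21 TPM in DMSO day 4 and 0.435 TPM in DMSO day 3. Spsb2, an adaptor of a ubiquitin ligase, had 6.61 TPM in C2 ceramide day 4, 2.75 TPM in DMSO day 4 and 3.61 TPM in DMSO day 3. The log2 ratio of C2 ceramide against DMSO day 4 was 4.08 [2.98, 5.43] for Wt1, 1.32 [1.06, 1.58] for Bcl2 and 1.27 [0.87, 1.68] for Spsb2, and the median of the list was 0.16. Reads of Wt1 and its antisense neighbour Wt1os cannot be told apart without strand.

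**Figure D4:**
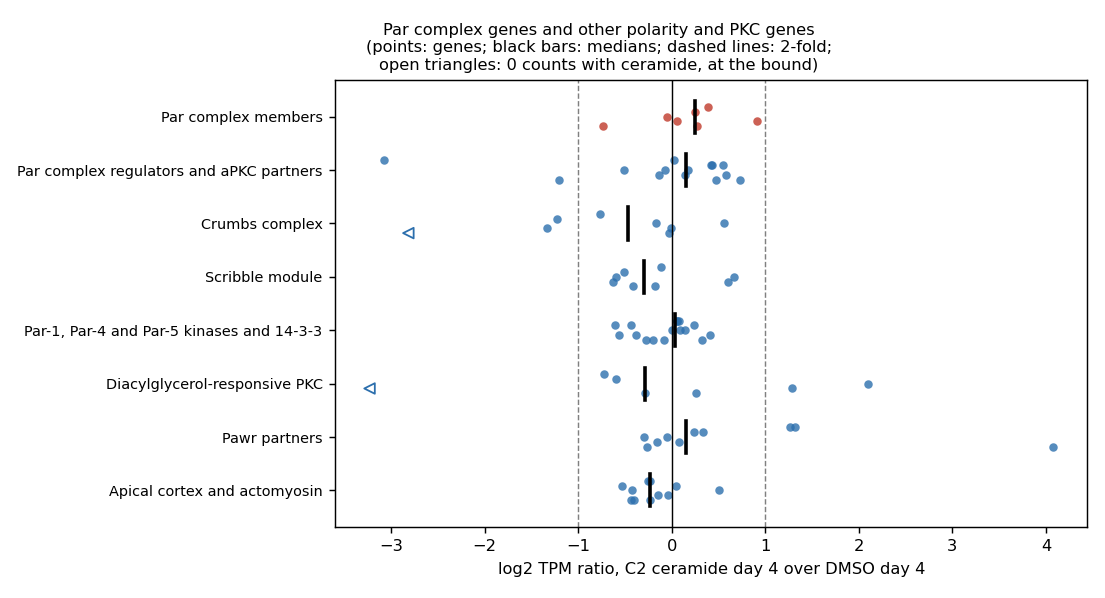
Log2 TPM ratios of C2 ceramide day 4 against DMSO day 4 for the 7 members (top) and for the genes in use of 7 further polarity and PKC lists, 1 point per gene, with black bars for list medians and dashed lines at 2-fold. All 7 members lie within 2-fold, and genes with 0 counts in C2 ceramide day 4 are drawn as open triangles at their bound.

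Markers of cell types moved between the same libraries. Summed TPM of 7 primitive streak and nascent mesoderm markers was 68.8 in C2 ceramide day 4, 786.8 in DMSO day 4 and 90.5 in DMSO day 3, with 7 of 7 lower in C2 ceramide against DMSO day 4. For 7 endoderm markers it was 5.66 in C2 ceramide day 4, 655 in DMSO day 4 and 5.95 in DMSO day 3 (6 of 7 lower), and for 5 mesenchyme markers 52.2, 160 and 20.9 in that order (3 lower, 1 higher). For 8 naive pluripotency markers it was 614 in C2 ceramide day 4, 194 in DMSO day 4 and 263 in DMSO day 3 (7 of 8 higher), for 6 ES cell and epiblast markers 2460, 1756 and 3318 (2 higher, 1 lower), and for 4 epithelial markers 1197, 1670 and 832 (1 lower). For 10 neuroectoderm and neuron markers it was 46.9, 24.2 and 22.8, with 5 of 9 in use higher and 1 lower. For 4 fibroblast markers it was 7.87, 2.07 and 3.10 (2 higher, 1 lower). Of all genes in use, 9.97% were higher and 12.3% were lower in C2 ceramide against DMSO day 4. Some marker calls rest on few estimated counts. In C2 ceramide day 4 and DMSO day 4, Ttr had 5 and 10, Apoa1 4 and 16, and Postn 2 and 27. Thy1 had 22 and 14, and Dcx 15 and 20. Sox1 was at 0 in both DMSO libraries, Zic1 in C2 ceramide day 4 and Postn in DMSO day 3. The part of these shifts in the ratios of Pawr, Pard6g, the transcript classes and the other polarity genes was not tested.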

How the data were processed

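RNA of mouse EBs was measured in 3 libraries, 1 per condition. The authors used the SMART-Seq v4 kit for cDNA and quantified reads with DRAGEN 3.6.3 on GRCm38 with GENCODE M25. The gene and transcript tables deposited by the authors hold TPM, which is scaled to the same total in every library, and estimated counts (expected counts, not normalized). Whether counting used strand is not given in the sources used here. Genes overlapping the 7 members had at most 2 estimated counts.

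Ratios of TPM came from Python 3.11.15 (SciPy 1.17.1, NumPy 2.4.6, pandas 2.3.3) and plots from Matplotlib 3.10.9. Values of 0 TPM were replaced by 0.001. Intervals are exact conditional (Clopper-Pearson) 95% intervals of the ratio of rounded counts, shifted to the TPM ratio, and exact Poisson intervals for levels. Both cover counting error only. PCR copies are not independent molecules, so the intervals may be too narrow even for that error. A gene was in use where any library had 10 or more counts. The calls and intervals of C2 ceramide against DMSO day 4 were first tested on simulated gene counts. The simulation used the same counting error that the intervals assume, so it could not check them beyond that error. The other steps were not part of it. With 1 library per condition no p-value is given.

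Exons, codons and junction sequences came from GENCODE M21 on GRCm38, where 54 of 55 transcripts were matched, and promoter windows from RefSeq on GRCm38.p6. Text names all members, their leading transcripts and those with at least 10% of a gene's TPM in a library, the 2 nearest genes of each member, and at most 4 called genes of each list with at least 50 counts. Lin7a, Prkcq, Pard3b, Cdc42 and transcripts ENSMUST00000103178.10, ENSMUST00000079777.11 and ENSMUST00000145373.1 were named after their values were seen, called marker genes are given mostly as counts, 1 called gene of a list is not reported here, and the members and lists were chosen with earlier results of these data known. Alternatives were other pseudocounts, filters and thresholds, CPM, TMM factors from edgeR 4.0.16 and size factors from DESeq2 1.42.0 in R 4.3.3 (on rounded counts), coding transcripts only, and calls on the whole interval.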

Additional observations from a re-analysis of the deposited data

How the results depend on the processing

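In C2 ceramide day 4 against DMSO day 3, the 1 member called became 0 with CPM, TMM, DESeq2 size factors, a 4-fold threshold or a whole interval past 2-fold, and 2 at 1.5-fold. In C2 ceramide against DMSO day 4, 0 became 2 at 1.5-fold. At 1.5-fold, 20 of 74 genes of the 7 further lists were called for C2 ceramide against DMSO day 4 (11 at 2-fold). Of these, 8 were higher and 12 lower, beside 16.4% and 19.5% of all genes in use. The counts were 21 (11) for DMSO day 4 against DMSO day 3 and 11 (6) for C2 ceramide day 4 against DMSO day 3. For those comparisons the shares of all genes at 1.5-fold were not computed. Of 126 recomputed member log2 ratios, 124 stayed within the counting interval and 124 kept their sign, with a largest shift of 0.22. Many of them could hardly move. The pseudocounts are small beside the member levels, and Pard6b, Pard6g and Pawr each have a single form with counts. The 2 outside their interval came from coding transcripts only. They were Pard3 in DMSO day 4 against DMSO day 3 (0.41) and Pard6a in C2 ceramide day 4 against DMSO day 3 (0.61).

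Shares within a family changed with the unit, since counts grow with transcript length. From counts, in the order C2 ceramide day 4, DMSO day 4 and DMSO day 3, Prkcz had 16.5%, 18.7% and 15.8% of the pair, Pard6a 10.6%, 9.42% and 7.53%, Pard6b 75.8%, 65.3% and 65.8%, and Pard6g 13.6%, 25.3% and 26.7% of the adaptors. From coding transcripts, Prkcz had 22.1%, 25.4% and 20.9%, Pard6a 25.0%, 21.7% and 17.7%, and Pard6b 62.3%, 54.4% and 56.4%, and Pard6g had 23.9% in DMSO day 4 and 26.0% in DMSO day 3. Pard6g had its lowest share in C2 ceramide day 4 under each of these units.

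No paired analysis was possible because each condition has 1 library, so there was no replicate to leave out either. Differences between cultures were not measured, and transcript values carry an assignment error of unknown size.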
